A study of Amia calva with 36 samples.

Results

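Dorsal foregut endoderm was compared with dorsal foregut mesoderm in bowfin (Amia calva) embryos at Ballard stage 24, just before the gas bladder begins to bud. The comparison rests on 6 of the 36 sequencing libraries of the series, taken by their column labels: 3 of dorsal endoderm and 3 of dorsal mesoderm. All 36 libraries come from embryos of eggs collected in the wild, for which the labels name no genetic change or treatment, and form 12 groups of 3 by side (dorsal or ventral), layer (endoderm or mesoderm) and stage (24, 25 at budding, 27 during outgrowth). The tissue was cut by laser from transverse cryosections, its RNA was amplified, and the table gives log2 CPM, the read count of a gene scaled to the size of its library (CPM) on a log2 scale. Dorsal and ventral pieces of both layers were cut from each section, and the labels do not say whether replicates were separate embryos, so the p-values cover only differences among the libraries at hand, which may be technical.

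The foregut is a tube of endoderm wrapped in mesoderm. Endoderm forms the epithelial lining of the gut and of the organs that bud from it, and the surrounding mesoderm forms their smooth muscle and connective tissue. In mouse and chick, the layers signal to each other while lung buds form: the endoderm secretes Hedgehog ligands, and the mesoderm secretes Fgf, Bmp and Wnt ligands. The gas bladder of bowfin arises dorsally, so dorsal endoderm and dorsal mesoderm at stage 24 are the layers next to the future bud. The table lists bowfin gene identifiers (AMCG numbers) and, for 11428 of 21948 genes, an Ensembl identifier of the spotted gar, but no gene names. Layer markers known by name could therefore not be looked up, and the layers are described below through genes that separated endoderm from mesoderm in other libraries.

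Reads assigned to genes, recovered from the table, numbered 377516, 987659 and 875697 in the dorsal endoderm libraries, against 1508115, 746538 and 847631 in the dorsal mesoderm libraries. The first endoderm replicate was thus the shallowest of the 6. Elsewhere in the series, ventral endoderm replicate 3 at stage 24 held 3040 reads and stood apart from every other library, which held 377516 to 1998280 reads. Ventral values at stage 24 are given below without it, where 5 genes (0.0354%) passed an adjusted p of 0.05 between the layers with limma.

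A read was found for 11224 genes in at least 1 of the 6 libraries, but for only 886 of them in all 6. Of the 11224 genes, 6933 were read in both layers, 1642 in dorsal endoderm only and 2649 in dorsal mesoderm only, and 3243 were read in a single library. The 886 genes read everywhere held most of the reads: 72.3%, 54.4% and 59.4% in the endoderm libraries, against 56.6%, 57.9% and 60.9% in the mesoderm libraries. Most reads of both layers thus fell on a small common set, while most genes were missing from at least 1 library. In bulk tissue, fewer cells of a type and less RNA per cell cannot be told apart, which holds for all levels below.

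Thinned to 377516 reads, the endoderm libraries held a read for 2110, 6811 and 3989 genes, against 5632, 6843 and 3869 genes in the mesoderm libraries. The groups overlapped, and the endoderm replicates lay further apart than the layers did. Means were 4304 ± 2366 genes in dorsal endoderm and 5448 ± 1496 genes in dorsal mesoderm (SD, n = 3 each), a ratio of 0.79 (exact two-sided permutation test, p = 0.6; 3 against 3 cannot go below 0.1). Leaving out endoderm replicate 1 brought the ratio to 0.991, and leaving out endoderm replicate 2 brought it to 0.560. At stage 27 the same tissues held a read for 9771 ± 1844 genes in dorsal endoderm and 9806 ± 1716 genes in dorsal mesoderm at this depth.

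**Figure D1:**
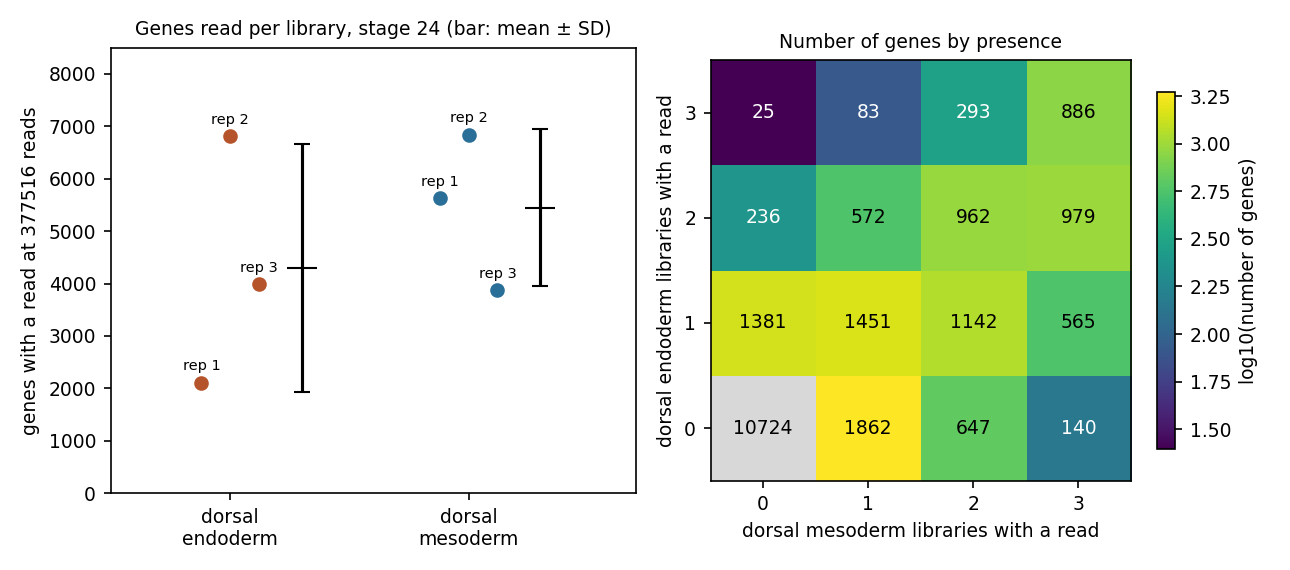
Genes with a read at stage 24. Left, number of genes with a read per library after thinning to 377516 reads, with the mean and SD of 3 libraries beside each layer. Right, number of genes by how many of the 3 dorsal endoderm libraries (vertical) and of the 3 dorsal mesoderm libraries (horizontal) held a read. The endoderm libraries span 2110 to 6811 genes and overlap with mesoderm, and 886 genes were read in all 6 libraries, against 25 read in all of endoderm and none of mesoderm and 140 read in all of mesoderm and none of endoderm.

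Even genes abundant in 1 library were often unread in a replicate of the same layer, and the cause was not tested. Of 2976 genes above 100 CPM in at least 1 dorsal endoderm library, 1025 (34.4%) were read in all 3 endoderm libraries, and 649 were read in 1 alone. Of 3230 such genes in dorsal mesoderm, 1802 (55.8%) were read in all 3 mesoderm libraries, and 405 in 1 alone. A level of 100 CPM predicts 37.8 reads in the shallowest of the 6 libraries. The share read in all 3 was 41.4% in dorsal endoderm and 43.5% in dorsal mesoderm at stage 25, and 96.6% and 96.0% in the same tissues at stage 27. A value of 0 CPM at stage 24 therefore means that no read was found, not that the transcript was absent.

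A single gene, AMCG00006382, took the largest share of reads in all 6 libraries: 22.0%, 9.87% and 10.5% in dorsal endoderm, against 10.5%, 18.5% and 13.1% in dorsal mesoderm. It has no gar identifier, and its share averaged 14.1 ± 6.81% in endoderm and 14.0 ± 4.04% in mesoderm (SD, n = 3 each, exact two-sided permutation test, p = 1). The 100 most abundant genes of each library together took 64.1%, 35.8% and 44.5% of reads in endoderm, against 38.8%, 45.8% and 45.4% in mesoderm. The first endoderm replicate, the shallowest with the fewest genes, was also the most concentrated. Means were 48.1 ± 14.5% and 43.3 ± 3.93% (SD, n = 3 each, exact two-sided permutation test, p = 0.9).

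In which genes were most abundant, pairs of libraries within a layer fell inside the range of pairs across the layers. Pairs of endoderm libraries shared 25 to 41 of their 100 most abundant genes (median 30), pairs of mesoderm libraries shared 43 to 47 (median 44), and pairs across the layers shared 24 to 57 (median 39). The 6 libraries had 17 of these genes in common. Pearson correlations of log2 CPM over the 14132 tested genes ran from 0.37 to 0.50 between endoderm libraries, 0.46 to 0.54 between mesoderm libraries and 0.34 to 0.54 across layers. These correlations are across genes, which are not independent replicates, and pairs share libraries.

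Of the 11224 genes with a read, 1287 were read in all 3 dorsal endoderm libraries and 2570 in all 3 dorsal mesoderm libraries. The counts of genes that sorted fully by layer are drawn from these unequal numbers. Reads in all 3 endoderm libraries and in no mesoderm library were found for 25 genes, with mean levels of 4.81 to 356 CPM (median 55.3) in endoderm. Reads in all 3 mesoderm libraries and in no endoderm library were found for 140 genes, with mean levels of 1.06 to 489 CPM (median 37.3) in mesoderm. Leaving out a library loosens the conditions, so each count could only stay or rise. The layer that lost a library then needed a read in fewer libraries, so the order of the 2 counts is not a like comparison. Without endoderm replicate 1 the counts were 198 and 163, in the reverse order. Without endoderm replicate 2 they were 37 and 599, and without endoderm replicate 3 they were 76 and 223. Leaving out mesoderm replicates 1, 2 and 3 in turn gave 57 and 331, 66 and 231, and 35 and 505.

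The endoderm set of 25 genes also leaned towards endoderm on the ventral side. In ventral stage 24 libraries, which were not used to choose it, endoderm exceeded mesoderm for 20 of the 25 and lay below it for 4. Of all tested genes, 41.9% were higher in ventral endoderm and 30.1% lower. Both sides were cut from each section, so the ventral libraries may not be independent of the dorsal ones. Ventral endoderm replicates 1 and 2 held reads for 2885 and 8249 genes, against 4363, 2700 and 5906 in ventral mesoderm. Of the 140 mesoderm genes, 67 were lower in ventral endoderm than in ventral mesoderm and 56 higher. On the dorsal side at stage 27, 18 of the 25 endoderm genes were higher in endoderm and 7 lower, where 51.7% of tested genes were higher, and 89 of the 140 mesoderm genes were lower and 51 higher, where 46.6% of tested genes were lower. At stage 25 the 25 endoderm genes split into 12 higher and 11 lower, where 31.7% of tested genes were higher and 36.0% lower. Of the 140 mesoderm genes, 80 were lower at stage 25 and 41 higher. A gar identifier was present for 19 of the 25 and 90 of the 140.

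Of 14132 genes tested with limma across all 36 libraries, 1 (0.00708%) passed an adjusted p of 0.05 (Benjamini-Hochberg), and it was lower in dorsal endoderm than in dorsal mesoderm. An unadjusted p under 0.05 was reached by 1049 genes (7.42%), of which 306 (2.17%) were higher in endoderm and 743 (5.26%) were higher in mesoderm. Single libraries and the scaling moved this balance. Without endoderm replicate 1, the unadjusted split turned round to 663 genes on the endoderm side against 407 on the mesoderm side, and without mesoderm replicate 3 it was 177 to 1045. It was 158 to 559 after median centring, 602 to 661 after quantile normalization, which shifted the median of all genes by 0.11 on the log2 scale, and 533 to 694 with limma voom on the recovered reads without the 3040-read library, which shifted it by 0.42.

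The number of genes past the adjusted threshold also turned on single libraries. It was 16, 2 and 5 without endoderm replicates 1, 2 and 3, of which 15, 1 and 5 were higher in endoderm. It was 23, 16 and 14 without mesoderm replicates 1, 2 and 3, and 0 of these were higher in endoderm. The direction of the calls thus changed with the layer that lost a library. Without the 3040-read library, which is in neither group but shares the estimate of spread, no gene passed (limma, smallest adjusted p = 0.058), with 1053 genes at an unadjusted p under 0.05. Fitted on the 6 libraries alone, no gene passed (limma, smallest adjusted p = 0.854), with 315 genes at an unadjusted p under 0.05.

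**Figure D2:**
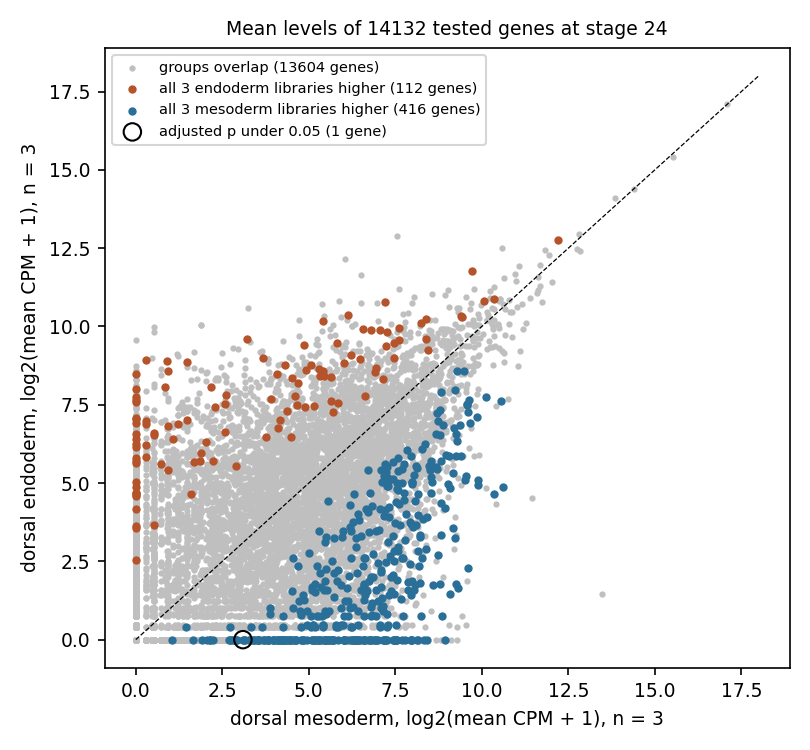
Mean level of each of 14132 tested genes in dorsal endoderm (vertical) and dorsal mesoderm (horizontal) at stage 24, as log2(mean CPM + 1) of 3 libraries each, with a dashed line of equal levels. Coloured genes do not overlap between the layers: all 3 endoderm libraries were higher for 112 genes and all 3 mesoderm libraries for 416, and the circle marks the 1 gene with an adjusted p under 0.05, close to the bottom of the range.

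The gene that passed was AMCG00005387, for which the table gives no gar identifier. It had 0, 0 and 0 CPM in dorsal endoderm, against 2.65, 9.38 and 10.6 CPM in dorsal mesoderm, 20 reads in all. All 3 mesoderm libraries were above all 3 endoderm libraries, at a low level. Its mean was 7.55 ± 4.29 CPM in mesoderm (SD, n = 3), at least 5.64-fold lower in endoderm against a floor of 3 counts over the endoderm reads (1.34 CPM). That floor covers counting error only, not transcripts missed in a library. The log2 difference of the deposited values was -2.22 (SE 0.41, limma, adjusted p = 0.0361). It had a read in 5 of the 36 libraries: the 3 of dorsal mesoderm at stage 24 and 2 of mesoderm at stage 27. It thus passed the filter of over 1 CPM in 3 libraries only through the group where it was high, which fixes the direction of its difference. The call was kept in 12 of the 20 alternatives that gave it a value (adjusted p of 0.000383 to 0.0476, limma) and lost in 8 (0.0556 to 0.873). All fits that kept it pooled the spread over further groups, in most of which it had no read, so they are not separate support. On the 12 stage 24 libraries alone its adjusted p was 0.267, and on the 6 libraries alone 0.854 (limma). A filter of 4 CPM removed the gene.

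AMCG00006945, also without a gar identifier, came next by p on the mesoderm side. It had 0, 7.09 and 0 CPM in dorsal endoderm, against 179, 44.2 and 925 CPM in dorsal mesoderm. The groups did not overlap, although the mesoderm libraries spread over a wide range. Mean levels were 2.36 ± 4.09 and 383 ± 474 CPM (SD, n = 3 each), 162-fold higher in mesoderm, and the log2 difference was -5.99 (SE 1.16, limma, adjusted p = 0.0509). It passed the threshold in 12 of 21 alternatives. At stage 27 it had 2.57, 1.07 and 0 CPM in dorsal endoderm, against 5.89, 49.4 and 23.5 CPM in dorsal mesoderm, and at stage 25 it was unread in both.

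On the endoderm side, AMCG00002999 (gar ENSLOCG00000004590) had the smallest p among genes whose layers did not overlap. It had 162, 37.5 and 163 CPM in dorsal endoderm, against 0, 0 and 0 CPM in dorsal mesoderm. Mean endoderm level was 121 ± 72.2 CPM (SD, n = 3), at least 125-fold higher than in mesoderm against a floor of 3 counts over the mesoderm reads (0.967 CPM). This floor too covers counting error only, not transcripts missed in a library. The log2 difference was 5.80 (SE 1.30, limma, adjusted p = 0.0834), and 4 of 21 alternatives brought it past the threshold. No ventral library of stage 24 held a read of it. At stage 25 it had 0, 0 and 0 CPM in dorsal endoderm, against 39.7, 30.6 and 0 CPM in dorsal mesoderm, and at stage 27 it had 57.1, 49.2 and 5.93 CPM, against 0, 7.06 and 1.38 CPM.

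AMCG00010933 (gar ENSLOCG00000017662) followed, with 400, 90.1 and 116 CPM in dorsal endoderm, against 0, 0 and 0 CPM in dorsal mesoderm. All endoderm libraries were thus above all mesoderm libraries. Its mean of 202 ± 172 CPM in endoderm (SD, n = 3) was at least 209-fold higher than in mesoderm against the same floor, with the same limit. The log2 difference was 6.48 (SE 1.65, limma, adjusted p = 0.197). It passed the threshold in 1 of 21 alternatives. At stage 27 the order was the other way, with 9.63, 0 and 40.3 CPM in dorsal endoderm, against 65.7, 143 and 0 CPM in dorsal mesoderm, with the groups overlapping.

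**Figure D3:**
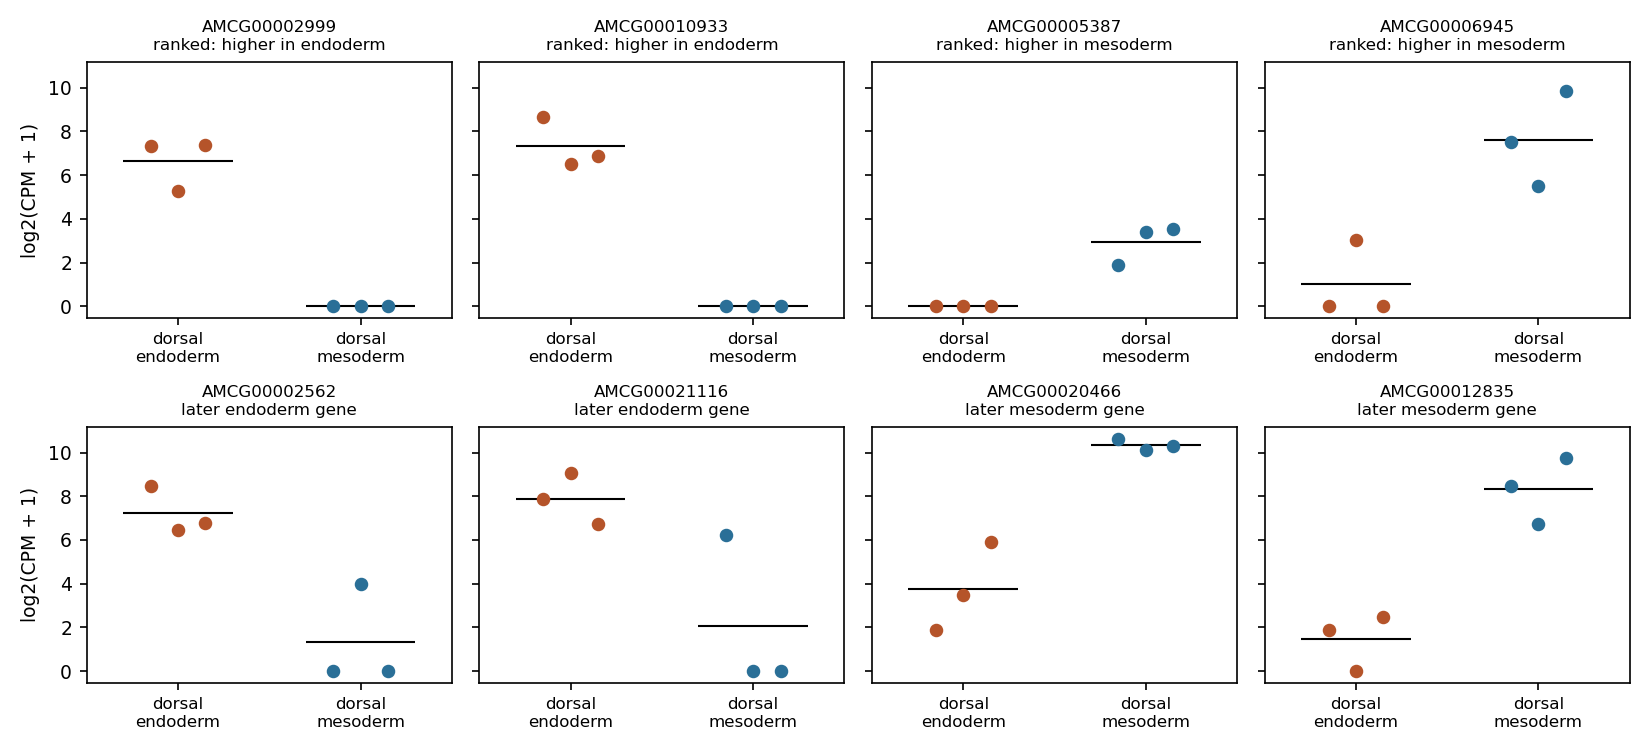
Levels of 8 genes in each of the 3 dorsal endoderm (left in each panel) and 3 dorsal mesoderm libraries (right) at stage 24, as log2(CPM + 1), with a line at the mean of the log2 values. The upper row shows the genes with the smallest p in each direction, of which AMCG00005387 was called. The lower row shows genes called between the layers over stages 25 and 27 together, picked by their difference at stage 24. All 8 were picked among genes whose layers do not overlap, so the lack of overlap was fixed by the choice.

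These genes included, the layers did not overlap for 528 of the tested genes (3.74%). All 3 endoderm libraries were above all 3 mesoderm libraries for 112 genes (0.793%), and all 3 mesoderm libraries were above all 3 endoderm libraries for 416 genes (2.94%). Quantile normalization brought these counts to 364 and 445. A gar identifier was present for 80 of the 112 (71.4%) and 264 of the 416 (63.5%), against 59.5% of all tested genes. The 886 genes read in all 6 libraries held 37 with an unadjusted p under 0.05 (4.18%, against 7.42% of all tested genes, a difference that was not tested). Of these 886, 377 were higher in endoderm, and the median log2 difference was -0.30, against 0 over all tested genes.

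The largest set of calls came from limma voom, applied to the recovered reads without the 3040-read library. Voom weights each value by the precision predicted for its fitted read count. It called 50 genes (0.354%), 12 higher in dorsal endoderm and 38 higher in dorsal mesoderm. The 12 endoderm genes had mean endoderm levels of 73.9 to 483 CPM (median 161), and 8 of them had no read in dorsal mesoderm. Mean mesoderm levels of the 38 genes were 63.5 to 1318 CPM (median 185), and 21 of them had no read in dorsal endoderm. All 50 had an unadjusted p under 0.05 in the fit on log2 CPM. AMCG00002999 (adjusted p = 0.0107), AMCG00010933 (adjusted p = 0.0158) and AMCG00006945 (adjusted p = 0.0122) were among them, by voom in limma, and AMCG00005387 was not (adjusted p = 0.36).

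To ask whether the dorsal pieces at stage 24 carried the layers' later differences, genes were taken that differed between endoderm and mesoderm in the 24 libraries of stages 25 and 27, which share no library with stage 24. Of 13780 genes tested there with limma, 731 (5.30%) passed an adjusted p of 0.05: 250 were higher in endoderm and 481 were higher in mesoderm. Tested alone, stage 27 called 1373 genes and stage 25 called 7. These lists were added after stage 24 values had been seen, and are given as counts with no test. No read was found in the 6 stage 24 libraries for 23 of the 250 and 132 of the 481.

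The 250 later endoderm genes took 2.76%, 4.94% and 3.88% of reads in the dorsal endoderm libraries at stage 24, against 1.78%, 0.802% and 1.62% in the dorsal mesoderm libraries. Every endoderm library was above every mesoderm library. Means were 3.86 ± 1.09% in endoderm and 1.40 ± 0.523% in mesoderm (SD, n = 3 each), 2.76-fold higher in endoderm. In the ventral libraries, the same genes took 1.17% and 4.07% of reads in endoderm, against 1.17%, 1.59% and 1.60% in mesoderm, so those groups overlapped.

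The 481 later mesoderm genes took 1.22%, 1.67% and 3.23% of reads in the dorsal endoderm libraries, against 3.79%, 3.82% and 4.81% in the dorsal mesoderm libraries. Again the layers did not overlap, although endoderm replicate 3 lay close to the mesoderm libraries. Means were 2.04 ± 1.05% in endoderm and 4.14 ± 0.581% in mesoderm (SD, n = 3 each), 2.03-fold higher in mesoderm. Ventrally they took 1.92% and 1.46% of reads in endoderm, against 4.18%, 6.24% and 3.77% in mesoderm. Both dorsal tissues at stage 24 thus held reads of the other layer's later genes, and the part that neighbouring tissue in the cut pieces has in this was not tested.

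**Figure D4:**
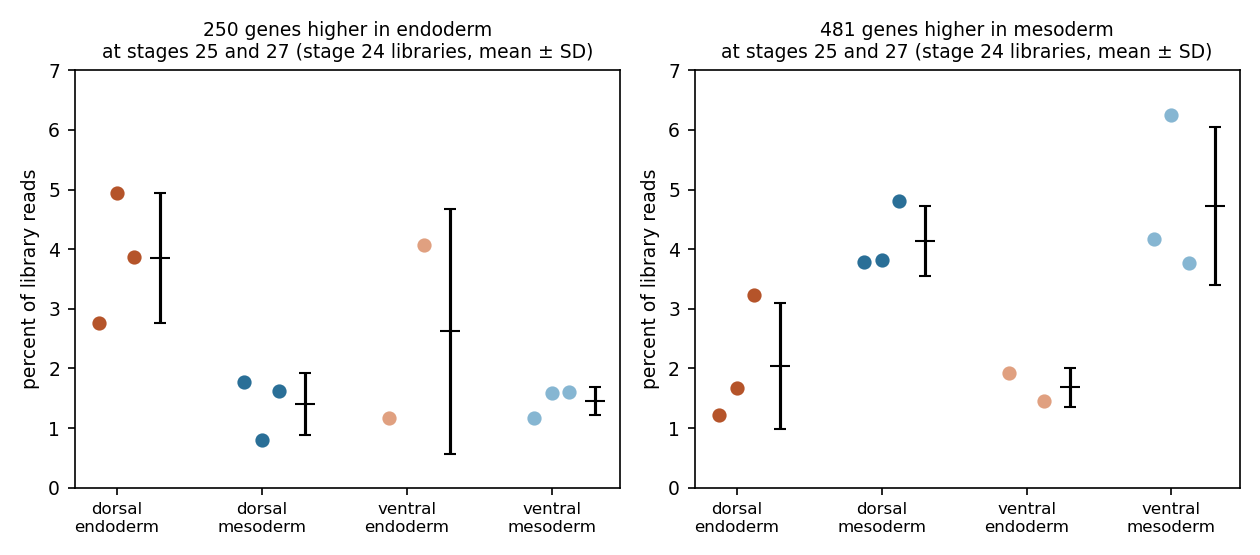
Percent of each stage 24 library's reads that fell on genes higher in endoderm (left, 250 genes) or in mesoderm (right, 481 genes) at stages 25 and 27, with the mean and SD beside each group. The ventral endoderm library of 3040 reads is left out. Dorsal endoderm lies at 2.76% to 4.94% on the left, above dorsal mesoderm at 0.802% to 1.78%, and at 1.22% to 3.23% on the right, below dorsal mesoderm at 3.79% to 4.81%.

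Gene by gene, the later lists leaned the same way at stage 24. Of the 250 endoderm genes, 166 were higher in dorsal endoderm and 61 lower, where 29.9% of all tested genes were higher and 47.2% lower, with a median log2 difference of 0.91, against a median of 0 over all tested genes. An unadjusted p under 0.05 was reached by 27 in this direction (10.8%, against 2.17% of all tested genes) and by 1 in the other. The spread behind these p-values was estimated over all 36 libraries, including those that chose the list. With limma on the 12 stage 24 libraries alone, 8 reached it in this direction (3.2%, against 0.785%). In 14 (5.6%, against 0.793%) every endoderm library was above every mesoderm library, and in 0 the reverse. The endoderm lean in these counts depended largely on replicate 2: without it, 101 genes were higher and 90 lower. The median was then 0, against -0.26 over all tested genes, and 12 reached an unadjusted p under 0.05 (4.8%, against 1.87%). The number at an unadjusted p under 0.05 was 48 without endoderm replicate 1 (19.2%, against 4.69% of all tested genes). It was 16 (6.4%, against 1.77%) and 11 (4.4%, against 1.25%) without mesoderm replicates 2 and 3. Endoderm replicate 2 held reads for 200 of the 250 genes, against 76 and 122 in the other endoderm libraries and 120, 114 and 76 in the mesoderm libraries.

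Of the 481 later mesoderm genes, 281 were lower in dorsal endoderm and 68 higher at stage 24, from the same background of 47.2% lower and 29.9% higher. The median log2 difference was -0.52, against 0 over all tested genes. An unadjusted p under 0.05 was reached by 80 in this direction (16.6%, against 5.26% of all tested genes) and by 5 in the other. Here too the spread came in part from the libraries that chose the list. With limma on the 12 stage 24 libraries alone, 52 reached it in this direction (10.8%, against 2.99%). In 42 (8.73%, against 2.94%) every mesoderm library was above every endoderm library, and in 0 the reverse. Without endoderm replicate 1, 50 reached an unadjusted p under 0.05 (10.4%, against 2.88%). Without mesoderm replicate 2, 213 were lower and 91 higher, with a median of 0. Over all 3 libraries of their own layer, 53 of the 250 endoderm genes and 102 of the 481 mesoderm genes had a read, against 45 and 31 in all 3 libraries of the other layer. Of all genes, 1287 were read in all 3 endoderm libraries and 2570 in all 3 mesoderm libraries. These unequal bases lower the endoderm counts against the mesoderm ones in both lists. None of the 731 genes passed the adjusted threshold at stage 24 (limma, all genes tested). Only 1 of all 14132 tested genes passed it (0.00708%), so nothing is read from this. Voom called 50 of the 14132 (0.354%), 12 higher in dorsal endoderm and 38 higher in dorsal mesoderm. Later mesoderm genes made up 10 of these 38, out of 481 on the list. No later endoderm gene was among the 50, and with so few calls nothing is read from that absence.

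**Figure D5:**
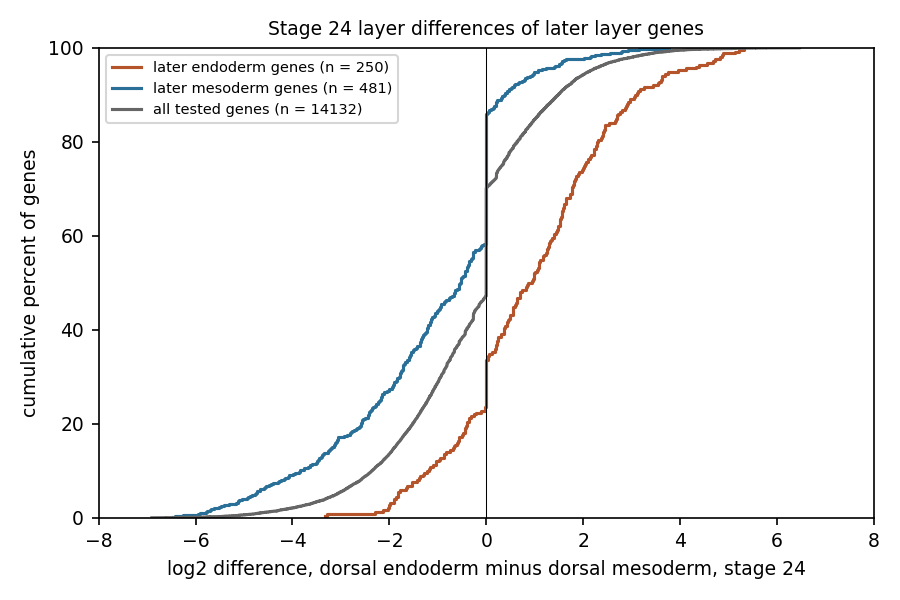
Cumulative percent of genes (vertical) by their log2 difference, dorsal endoderm minus dorsal mesoderm, at stage 24 (horizontal), for 250 later endoderm genes, 481 later mesoderm genes and all 14132 tested genes. The step at 0 holds genes with no read in the 6 libraries. The endoderm curve lies to the right of that of all genes (166 of 250 above 0) and the mesoderm curve to the left (281 of 481 below 0).

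Examples from each list were chosen after their values were seen, as those with the largest difference among genes whose layers did not overlap. The lists were called with the libraries of stages 25 and 27. Values given for those stages are therefore no separate support for the order at stage 24. AMCG00020466 (gar ENSLOCG00000005226), from the mesoderm list, had 2.65, 10.1 and 59.4 CPM in dorsal endoderm, against 1589, 1121 and 1243 CPM in dorsal mesoderm. The mesoderm libraries lay close together, at 1318 ± 242 CPM, and the endoderm libraries at 24.1 ± 30.8 CPM (SD, n = 3 each), so that it was 54.8-fold higher in mesoderm. Its log2 difference was -6.46 (SE 1.56, limma, adjusted p = 0.146; voom without the 3040-read library, adjusted p = 0.0398). At stage 27 it had 107, 40.7 and 66.4 CPM in dorsal endoderm, against 993, 1183 and 1282 CPM in dorsal mesoderm, and at stage 25 it had 719, 147 and 56.0 CPM, against 611, 1112 and 436 CPM. The stage 25 libraries overlapped between the layers, whereas those of stages 24 and 27 did not.

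AMCG00012835 (gar ENSLOCG00000015530) had 2.65, 0 and 4.57 CPM in dorsal endoderm, against 357, 104 and 872 CPM in dorsal mesoderm, 185-fold higher in mesoderm by the means. Its log2 difference was -6.42 (SE 1.75, limma, adjusted p = 0.216; voom without the 3040-read library, adjusted p = 0.0343). At stage 27, which helped to choose the list, it had 21.8, 24.6 and 36.7 CPM in dorsal endoderm, against 376, 564 and 539 CPM in dorsal mesoderm.

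From the endoderm list, AMCG00002562 (gar ENSLOCG00000000680) had 355, 86.1 and 110 CPM in dorsal endoderm, against 0, 14.7 and 0 CPM in dorsal mesoderm, 37.4-fold higher in endoderm by the means. Its log2 difference was 5.31 (SE 1.68, limma, adjusted p = 0.391). At stage 27 all 3 dorsal endoderm libraries held it, at 59.7, 122 and 46.2 CPM, and no dorsal mesoderm library did. At stage 25 it was nearly unread, with 2.42, 0 and 0 CPM in dorsal endoderm, against 0, 0 and 0 CPM in dorsal mesoderm. The ventral layers overlapped at stage 24, with 0 and 188 CPM in endoderm, against 0, 103 and 166 CPM in mesoderm. AMCG00021116 (gar ENSLOCG00000014777) had 233, 531 and 105 CPM in dorsal endoderm, against 74.3, 0 and 0 CPM in dorsal mesoderm, 11.7-fold higher in endoderm. Its log2 difference was 5.22 (SE 2.04, limma, adjusted p = 0.547), and at stage 27 it had 480, 731 and 445 CPM in dorsal endoderm, against 55.9, 53.8 and 0 CPM in dorsal mesoderm.

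Whether the dorsal layer difference at stage 24 differed from the ventral one was tested as the difference of the layer differences. It passed for 2 of 14132 genes (0.0142%, limma, adjusted p of 0.05). AMCG00000600 (gar ENSLOCG00000009500) had 0, 0 and 0 CPM in dorsal endoderm, against 218, 118 and 399 CPM in dorsal mesoderm. On the ventral side it had 81.6 and 51.2 CPM in endoderm, against 19.6, 0 and 0 CPM in mesoderm, so the order of the layers was the other way. The dorsal minus ventral log2 value was -11.67 (SE 2.11, limma, adjusted p = 0.0311).

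AMCG00018884, with no gar identifier, had 0, 0 and 0 CPM in dorsal endoderm, against 757, 32.1 and 0 CPM in dorsal mesoderm, with the layers overlapping at 0. Ventrally it had 109 and 59.7 CPM in endoderm, against 0, 0 and 0 CPM in mesoderm. The dorsal minus ventral log2 value was -10.46 (SE 2.00, limma, adjusted p = 0.0384). For both genes, AMCG00000600 included, ventral endoderm replicate 3 entered this fit at 329 CPM, which is 1 read of 3040. Without that library no gene passed (limma, smallest adjusted p = 0.207), with 804 genes at an unadjusted p under 0.05, whereas voom without it called 4 genes, with adjusted p = 0.0124 for AMCG00000600 and 0.0263 for AMCG00018884. Leaving out dorsal endoderm replicates 1, 2 and 3 gave 8, 0 and 0 genes, and leaving out dorsal mesoderm replicates 1, 2 and 3 gave 6, 2 and 4.

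The later lists were also counted on the ventral side, where endoderm had 2 libraries. In ventral endoderm against ventral mesoderm, 171 of the 250 later endoderm genes were higher and 46 lower, where 41.9% of all tested genes were higher and 30.1% lower, with 28 at an unadjusted p under 0.05 in that direction (background 4.52%). Ventral endoderm replicate 2 held reads for 205 of the 250 genes and replicate 1 for 75, against 78, 56 and 118 in ventral mesoderm. Of the 481 later mesoderm genes, 212 were lower and 87 higher, with 35 at an unadjusted p under 0.05 in that direction (background 1.75%). These ventral p-values again rest on a spread shared with the libraries that chose the lists. An unadjusted p under 0.05 in the same direction on both sides was reached by 6 of the 250 and 10 of the 481. The share of all tested genes that did so was not counted, so nothing is read from these 2 counts. None of the 731 genes was called in the test of dorsal minus ventral, which called 2 of 14132 tested genes (0.0142%), so nothing is read from this either.

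Between stages 24 and 25, the dorsal layer difference changed for 0 genes past the adjusted threshold (limma, smallest adjusted p = 0.404), with 689 genes at an unadjusted p under 0.05, and limma voom without the 3040-read library called 34. Leaving out dorsal endoderm replicate 1 gave 2 genes, and leaving out dorsal mesoderm replicates 1, 2 and 3 gave 2, 1 and 2. The comparison at stage 25 itself called 2 genes (0.0142%) with limma. Between stages 24 and 27 it changed for 63 genes (0.446%, limma), with 18 more towards endoderm at stage 27 and 45 more towards mesoderm. Of the 63, 51 had no read in any of the 6 stage 24 libraries, and their stage 24 difference was 0. For these 51 the change was thus the stage 27 difference itself. Over all tested genes at stage 24, 29.9% were higher in dorsal endoderm, 47.2% were lower, and the rest had a difference of 0. Of the 63, 62 were also called at stage 27 itself, and 43 had a gar identifier. Of these calls, 4 were later endoderm genes and 33 were later mesoderm genes, lists that were themselves chosen with the stage 27 libraries, so nothing is read from this count. Leaving out dorsal endoderm replicate 2 gave 35 genes, leaving out replicate 3 gave 36, and leaving out the 3040-read library gave 40. At stage 27 alone, 511 genes (3.62%) differed between the dorsal layers with limma, 205 higher in endoderm and 306 higher in mesoderm.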

How the data were processed

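RNA was measured by sequencing in 36 libraries of laser-captured bowfin foregut, 6 of which form the comparison. Per the submitters' processing notes, Trimmomatic 0.38, STAR 2.6, edgeR (no version) and R 3.6.0 were used by the authors; the genome build is not given in the sources used here. The deposited values are log2 CPM of 21948 genes. Their smallest value, 0.875 (1.83 CPM), is what a prior count of 2 gives, so library totals and reads could be recovered: 100% of values under 200 reads were whole within 0.02, and rebuilding the table from them left a difference of 5.0e-09 or less. CPM here is recovered reads scaled to the library total. No pair of libraries was identical (0 pairs). Floors of 3 counts cover counting error only, since amplification copies molecules.

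Deposited log2 values were fitted with limma 3.58.1 (trended, R 4.3.3), with a mean for each of 12 groups over all 36 libraries. Differences are on the log2 scale with the prior count, which understates low genes. Genes over 1 CPM in at least 3 libraries were tested (14132), a filter that a gene read in 1 group alone can pass. The threshold was a Benjamini-Hochberg adjusted p of 0.05. Single values were compared with exact permutation tests (scipy 1.17.1). Count tests were replaced by limma voom on recovered reads as an alternative. On simulated data the fit held its error rate where genes had equal spread in all groups, and exceeded it where spread followed the counts of each group. In the equal-spread setting no gene dropped out of single libraries, as many did here. That setting therefore does not show that the error rate held in these data.

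Named genes were those with non-overlapping layers, called genes first and then by smallest p, 2 printed per direction of 12 ranked; others are said to have been chosen after their values were seen or are calls counted in the text. AMCG00006382, AMCG00000600 and AMCG00018884 were named after their values were seen. The members and lists were chosen with earlier results of these data known. Planned lists of layer and signalling genes matched 0 identifiers and were not used. Genes were matched to no sequence.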

Additional observations from a re-analysis of the deposited data

Results flagged for a closer look

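The layer difference of 2 genes differed between the dorsal and the ventral side at stage 24 in a test of that difference. AMCG00000600 had a dorsal minus ventral log2 value of -11.67 (limma, adjusted p = 0.0311): no dorsal endoderm library and all 3 dorsal mesoderm libraries held a read. AMCG00018884 had a value of -10.46 (limma, adjusted p = 0.0384): no dorsal endoderm library and 2 of 3 dorsal mesoderm libraries held a read. Both values include the ventral endoderm library of 3040 reads. Without it, the same fit gave adjusted p = 0.207 for AMCG00000600 and 0.222 for AMCG00018884 (limma), and voom on the recovered reads gave 0.0124 and 0.0263. A fit on stages 24 and 25 without that library, added after seeing the data, gave 0.0233 and 0.227. At stage 27 both genes were read in every library of both layers and both sides.

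The dorsal layer difference differed between stages 27 and 24 for 63 genes in a test of that difference (limma, 0.446% of the genes tested). For 51 of them none of the 6 stage 24 libraries held a read, so their change was the stage 27 difference itself. Genes detected per library at equal depth were 9771 ± 1844 in dorsal endoderm and 9806 ± 1716 in dorsal mesoderm at stage 27, against 4304 ± 2366 and 5448 ± 1496 in the same tissues at stage 24 (SD, n = 3 each), and the part of detection in these calls was not tested.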

How the results depend on the processing

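For dorsal endoderm against dorsal mesoderm at stage 24, the 1 call became 8 without a filter, 3 with a filter of 4 CPM, 2 with a pseudocount of 5, 16 after quantile normalization, 0 after median centring, 12 without a variance trend, 2 with library weights, 0 in the 12 stage 24 libraries, 0 in the 6 libraries alone, 0 without ventral endoderm replicate 3, 2 with voom, 50 with voom without the 3040-read library and, in a fit added after seeing the data that changed both choices, 4 with stages 24 and 25 only and without the 3040-read library. Leaving out 1 library gave 2 to 23. For dorsal minus ventral, the 2 calls became 1 with a pseudocount of 5 and 0 after median centring. Quantile normalization called 1 gene, in the other direction, and neither of the 2 (limma, adjusted p = 0.126 for AMCG00000600 and 0.131 for AMCG00018884). There were 0 calls in the stage 24 libraries, 0 in the groups alone and 0 without ventral endoderm replicate 3. Voom called 793, and 4 without that library. With stages 24 and 25 only and also without it, 14 were called. Leaving out 1 of the 6 libraries gave 0 to 8. For stage 25 minus 24, the 0 calls became 1 without a trend, 12 with voom, 34 with voom without the 3040-read library and 2 with stages 24 and 25 only and also without it, and 0 to 2 without 1 of the 6 libraries. For stage 27 minus 24, the 63 calls became 147 without a filter, 30 with a filter of 4 CPM, 11 after quantile normalization, 0 after median centring, 98 without a trend, 0 in the groups alone, 40 without ventral endoderm replicate 3, 0 with voom and 48 with voom without that library, and 35 to 56 without 1 library. The causes were not tested.

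Among values of no single gene, the ratio of detected genes stayed under 1 in all settings run (0.560 to 0.991 without 1 library). Genes read in all of 1 layer and none of the other, without 1 library, numbered 35 to 198 for endoderm and 163 to 599 for mesoderm. Leaving out a library loosens these conditions, so the counts could only stay or rise. The log2 ratio of read shares was 1.46 for later endoderm genes (1.18 to 1.67 without 1 library) and -1.02 for later mesoderm genes (-1.52 to -0.76), and -1.80 with the 2 mesoderm genes that stage 25 alone gave. The counts of genes read in 1 layer alone and the read shares, with their alternatives, were added after seeing the data.

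Deviations of same-numbered endoderm and mesoderm libraries correlated at -0.0286, 0.0558 and 0.00939, and those of differently numbered libraries at -0.0772 to 0.0685. Genes unread in single libraries could hide a shared embryo or section, so these values cannot decide whether replicate numbers pair the samples. With the replicate block, 8 genes were called at stage 24, 1 for dorsal minus ventral, 0 for stage 25 minus 24 and 44 for stage 27 minus 24. Fits on stage 24 alone do not exist for contrasts between stages, nor fits on stages 24 and 25 for stage 27. Depth limits absence: 3 counts allow 1.34 CPM over the endoderm and 0.967 CPM over the mesoderm reads.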
